A study of Homo sapiens with 6 samples.

Results

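The 36 genes described here encode the machinery that carries proteins into mitochondria and inserts them into mitochondrial membranes. They were chosen by name, with earlier results of these data known. They are components of the TOM, SAM, TIM22 and TIM23 complexes, the import motor PAM, the small TIM chaperones, the disulfide relay, the insertase OXA1L and the signal peptidases of the inner membrane. All 36 had a row among the 28395 gene IDs of the count files. The cells were HCT116, a long-established line from a human colorectal cancer, so 1 line stands for all results. In one group (3 libraries) they had 50 nM TR-107 for 24 h, and in the other (3 libraries) 0.1% DMSO, the vehicle, for as long. TR-107 activates ClpP, a protease of the mitochondrial matrix, and the comparison asks how import gene mRNAs differ once it has acted. Polyadenylated RNA was sequenced, and the deposited values are raw read counts per gene. Replicates are called biological by the submitters, but how their cultures were kept apart is not said, so a p-value reflects only how far these libraries spread.

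Nearly all mitochondrial proteins are made in the cytosol and pass the outer membrane through TOM, whose channel is TOMM40. Presequence proteins go on through TIM23 and are pulled into the matrix by PAM. Multispanning carriers are handed by small TIM chaperones to TIM22, beta-barrel proteins are inserted by SAM, and small cysteine-rich proteins are trapped in the intermembrane space by the disulfide relay of CHCHD4 and GFER.

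Libraries held 17264039 to 23708135 counts, and mitochondrially encoded genes took 3.56% to 3.92% of them in DMSO and 4.62% to 4.99% in TR-107. All 10 colorectal epithelial markers checked had a count in at least 1 library, but VIL1 and CDH17 did not pass 0.0584 and 0.219 CPM (counts per 1000000 counts of a library) in any. The leukocyte markers PTPRC and CD3E, the fibroblast markers COL3A1, DCN and LUM and the endothelial marker CDH5 were at 0 in every library. Summed levels of the 4 leukocyte markers, nearly all from CD68, were 4.72 to 6.74 CPM in DMSO and 10.03 to 14.2 CPM in TR-107. Those of the 6 fibroblast markers were 13.3 to 16.5 and 16.2 to 18.3 CPM, those of the 4 endothelial markers 0.331 to 0.696 and 0.493 to 0.993 CPM, and those of the epithelial markers 5295 to 5349 and 5867 to 5985 CPM. The keratins KRT8, KRT18 and KRT19 held most of the epithelial sum (means of 2646, 1134 and 904 CPM in DMSO). Of the 8 epithelial markers tested, 5 rose, 1 fell and 2 were not called (29.2% of all tested genes rose and 28.6% fell). The one that fell was CDX2 (log2 fold change -0.46, edgeR adjusted p = 0.000518). The part of these markers in the results was not tested.

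After TR-107, import mRNAs were lower more often than higher. Of 34 tested import genes, 17 fell (50%) and 6 rose (17.6%), where 28.6% of all 13767 genes tested fell and 29.2% rose (edgeR's quasi-likelihood test, Benjamini-Hochberg adjusted p under 0.05 over all tested genes). The falls lay in TOM (6 of 7 tested), TIM23 (4 of 6), the small TIM chaperones (4 of 6), SAM (2 of 4) and the relay (1 of 2). The rises were TIMM17B, TIMM44, DNAJC19, TIMM9, MTX3 and IMMP2L. The median log2 fold change was -0.18 over the 34 import genes and 0.01 over all tested genes. Summed over the 36 genes, the level went from 2669 ± 29.5 CPM in DMSO to 2169 ± 61.4 CPM after TR-107 (SD, n = 3). CPM here is scaled by TMM, which sets libraries on a common level, and in bulk RNA fewer cells and less RNA per cell cannot be told apart.

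The largest fall was 1.89-fold (TOMM40) and the largest rise 1.87-fold (IMMP2L). Of the 34 tested import genes, 8 were called and at least 1.5-fold lower, and 2 called and at least 1.5-fold higher. Over all tested genes, 10.5% were called and at least 1.5-fold lower, and 13.7% called and at least 1.5-fold higher. The groups did not overlap for 24 of the 34 genes (70.6%), against 62.4% of all tested genes. Counting both directions, 23 of the 34 were called (67.6%), against 57.8% of all tested genes.

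**Figure D1:**
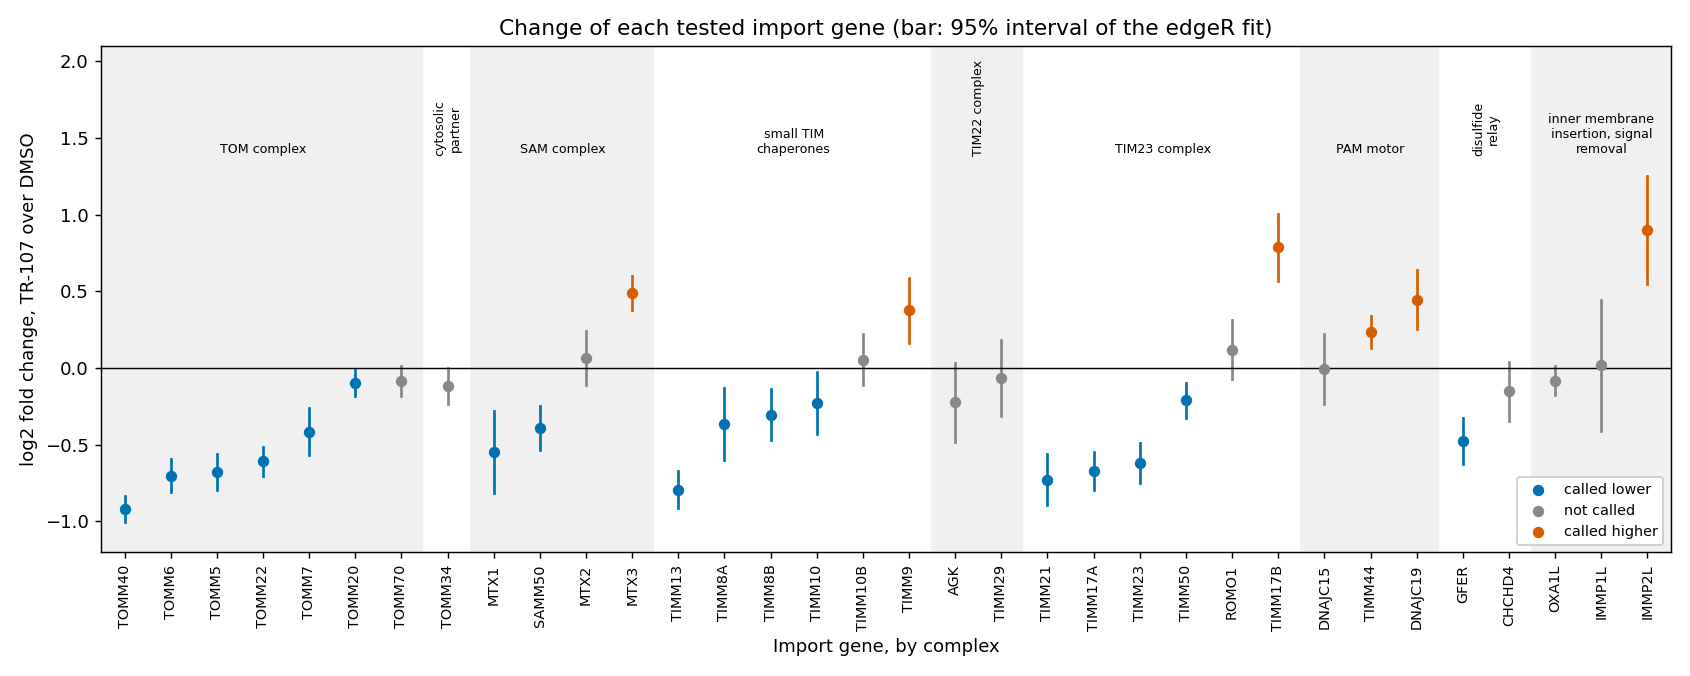
Each point is the log2 fold change (vertical axis) of 1 of the 34 tested import genes in TR-107 over DMSO, ordered by complex along the horizontal axis, with its 95% interval from the edgeR fit. Blue points (17) were called lower, orange points (6) higher and grey points (11) were not called; TOMM40 was lowest at -0.92 and IMMP2L highest at 0.90.

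The promoters of 6 members are shown because they stand for the range of responses: the channel gene that fell most, its receptor that moved little, the small TIM gene that fell most, both TIMM17 paralogs and the SAM gene that rose. Each run is the 250 bases before the RefSeq start (GRCh38.p14), 5′ to 3′ on the gene's strand. The start used for TIMM17B lies inside the annotated span of the gene. The runs lie at chr19:44891004-44891253, plus strand (TOMM40), chr1:235128838-235129087, minus strand (TOMM20), chr19:2427587-2427836, minus strand (TIMM13), chr1:201955253-201955502, plus strand (TIMM17A), chrX:48897769-48898018, minus strand (TIMM17B) and chr5:79991263-79991512, minus strand (MTX3). Capitals mark matches to the motifs given after them.
TOMM40: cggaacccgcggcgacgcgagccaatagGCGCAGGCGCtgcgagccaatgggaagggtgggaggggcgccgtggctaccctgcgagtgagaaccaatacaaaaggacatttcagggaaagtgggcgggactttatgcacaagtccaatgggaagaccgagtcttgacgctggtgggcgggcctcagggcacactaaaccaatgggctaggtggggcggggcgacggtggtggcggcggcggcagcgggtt
TOMM20: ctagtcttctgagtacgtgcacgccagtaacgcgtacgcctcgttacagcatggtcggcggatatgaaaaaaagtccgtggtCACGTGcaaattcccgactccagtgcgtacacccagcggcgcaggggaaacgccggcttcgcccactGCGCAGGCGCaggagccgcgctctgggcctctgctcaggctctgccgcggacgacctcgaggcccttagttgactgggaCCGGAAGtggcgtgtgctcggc
TIMM13: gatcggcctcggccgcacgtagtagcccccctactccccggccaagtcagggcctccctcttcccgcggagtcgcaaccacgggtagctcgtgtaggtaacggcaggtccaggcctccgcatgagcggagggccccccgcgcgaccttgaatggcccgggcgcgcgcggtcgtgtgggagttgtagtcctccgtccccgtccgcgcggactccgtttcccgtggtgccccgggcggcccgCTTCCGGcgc
TIMM17A: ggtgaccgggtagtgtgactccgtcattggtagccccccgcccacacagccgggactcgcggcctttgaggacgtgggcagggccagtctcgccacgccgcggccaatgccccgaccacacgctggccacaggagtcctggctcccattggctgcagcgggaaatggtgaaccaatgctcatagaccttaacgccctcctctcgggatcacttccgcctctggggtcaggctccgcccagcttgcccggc
TIMM17B: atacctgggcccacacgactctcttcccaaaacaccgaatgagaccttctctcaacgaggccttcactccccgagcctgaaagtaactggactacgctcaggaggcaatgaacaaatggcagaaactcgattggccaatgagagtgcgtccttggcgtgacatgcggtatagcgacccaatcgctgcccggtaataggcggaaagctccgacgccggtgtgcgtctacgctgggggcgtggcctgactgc
MTX3: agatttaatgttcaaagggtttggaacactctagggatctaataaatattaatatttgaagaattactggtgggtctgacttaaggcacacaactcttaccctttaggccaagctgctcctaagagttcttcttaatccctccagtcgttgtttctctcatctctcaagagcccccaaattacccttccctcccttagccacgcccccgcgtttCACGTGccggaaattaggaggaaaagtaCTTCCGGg

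Motifs were searched on both strands in the 300 bases from 250 before to 50 after the start, for 34 of the 36 members; TOMM5 and TIMM8B have no entry in the RefSeq promoter table. An ETS-type site (CCGGAAG), the kind bound by GABPA, an activator of respiratory chain genes, was in 15 of the 34 (44.1%) and in 19.3% of the promoters of 10216 tested coding genes. The core of the site of NRF1, another such activator (GCGCA and GCGC with any base between), was in 9 (26.5%) and 11.6%. A YY1-type core (AANATGGCG) was in 6 (17.6%) and 6.98%. The E-box CACGTG was in 4 (11.8%) and 10.2%, and the CRE half-site TGACGT in 2 (5.88%) and 11.6%. The full CRE TGACGTCA, which holds the half-site, was in 0 and 3.24%. A site of the kind bound by ATF4 (TGATGNAAN) was in 1, that of TIMM22 (2.94%), and 1.64%. The 34 promoters include those of TIMM22 and PAM16, which were not tested, whereas the 10216 are of tested genes only. The ATF4-type match and 1 of the 9 NRF1 promoters belong to these untested members. In the members, 0 matches overlapped a match of another motif. By response, the ETS site was in 6 of 15 promoters of genes that fell, 1 of 6 of genes that rose and 8 of 11 of genes that were not called. In the same order, the NRF1 core was in 3, 0 and 5, the YY1-type core in 2, 2 and 2, the E-box in 3, 1 and 0 and the CRE half-site in 0, 0 and 2. In the runs above, TOMM20 holds an E-box, an NRF1 core and an ETS site and TOMM40 an NRF1 core, while neither TIMM17 promoter holds a match. These are descriptions of letters and were not tested.

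TOM is the entry gate, and its core fell. TOMM40, the channel (GRCh38 chromosome 19, 44891254 to 44903689), was at 340.3, 328 and 318 CPM in DMSO replicates 1 to 3 and at 172.5, 176 and 173 CPM in TR-107 replicates 1 to 3. The highest TR-107 library was far below the lowest DMSO library, and the gene was 1.89-fold lower (log2 fold change -0.92 ± 0.04, SE; adjusted p = 3.74e-22 by edgeR). TOMM22, a receptor that also holds the complex together, was at 192, 194 and 189 CPM in DMSO and at 122, 126 and 128 CPM in TR-107. It fell by 0.61 ± 0.05 on the log2 scale (SE; edgeR adjusted p = 5.13e-15), again with no overlap. The small subunits that steady the channel fell too. TOMM6 went from 158.5, 142.5 and 147 CPM to 86.6, 95.7 and 92.8 CPM and was 1.63-fold lower. TOMM5 went from 114, 119 and 116.5 CPM to 69.3, 80.2 and 69.8 CPM and was 1.60-fold lower. TOMM7 had 51.6 to 58.2 CPM in DMSO and 38.7 to 43.7 CPM in TR-107 and was 1.33-fold lower, so none of the 3 small subunits overlapped between groups.

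The peripheral receptors of TOM changed little. TOMM20, the presequence receptor, was at 359, 339 and 341 CPM in DMSO and at 304, 330.1 and 334 CPM in TR-107. Its log2 fold change was -0.10 ± 0.04 (SE; edgeR adjusted p = 0.0386), and the call was lost without DMSO replicate 1 (adjusted p = 0.151) or TR-107 replicate 1 (0.28), within a range of 0.000379 to 0.28 over its alternatives. TOMM70, the receptor for carrier precursors, was at 149 to 165 CPM in DMSO and 145 to 152 CPM in TR-107 and was not called, with a 95% interval of -0.18 to 0.01 on the log2 scale. Without DMSO replicate 2 it was called lower (edgeR adjusted p = 0.0189). TOMM34, a cytosolic chaperone partner of precursors, was not called either (93.9 ± 2.13 and 86.7 ± 6.81 CPM, SD, n = 3; 95% interval -0.23 to 0.00), but was called lower without TR-107 replicate 2 (edgeR adjusted p = 0.0153) and with library size alone (0.00706). TOMM70 was likewise called lower with library size alone (0.00514). Within libraries the log2 ratio of TOMM70 to TOMM20 was -1.13 ± 0.05 in DMSO and -1.11 ± 0.04 after TR-107 (SD, n = 3), and the groups overlapped. The summed level of the 7 TOM genes went from 1345 ± 36.9 to 976 ± 29.2 CPM (SD, n = 3).

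**Figure D2:**
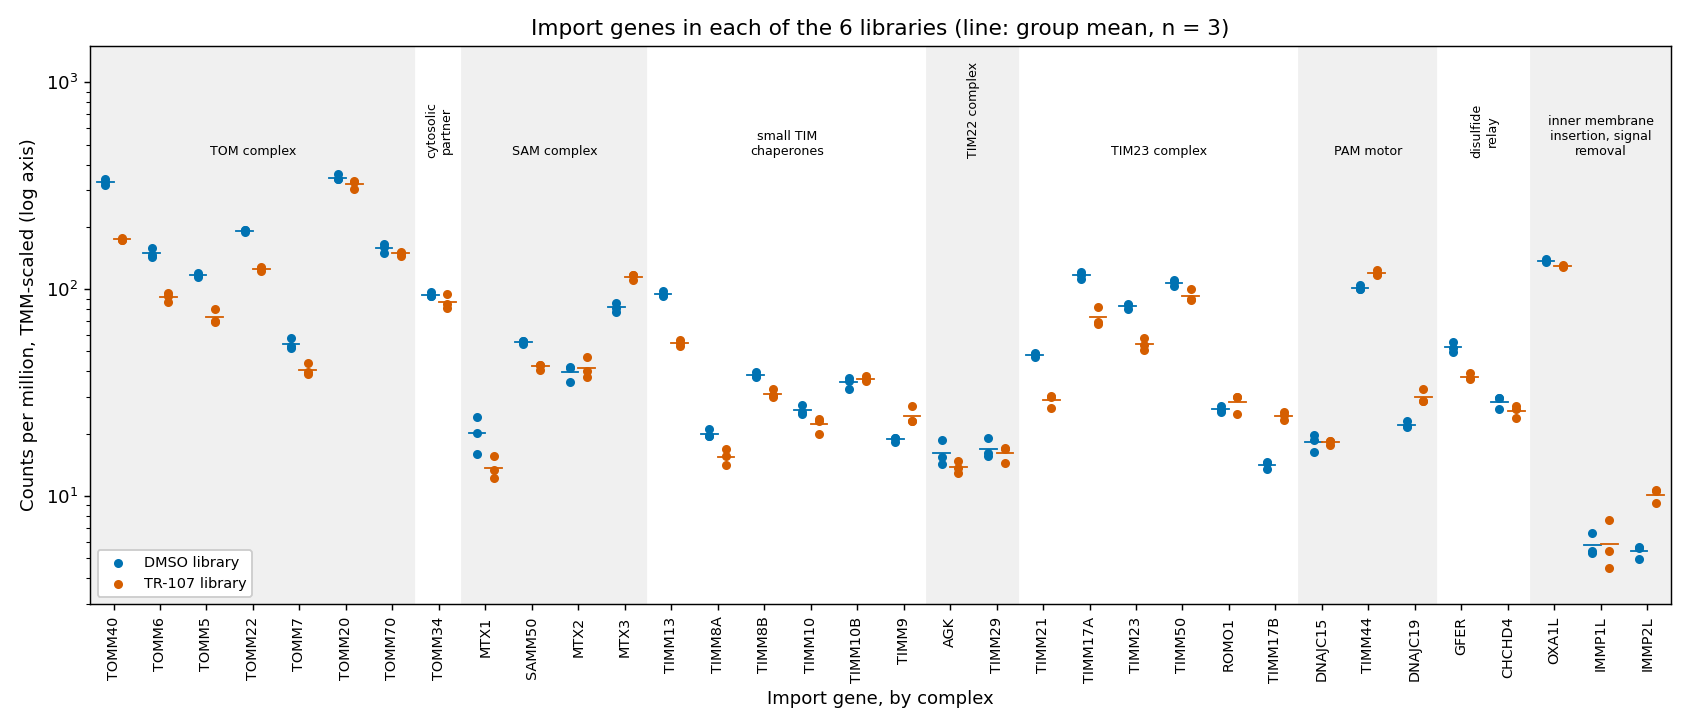
Each point is 1 library, as TMM-scaled CPM on a log axis, for each of the 34 tested import genes by complex; blue is DMSO, orange is TR-107, and lines are group means (n = 3). The TR-107 points of TOMM40, between 172.5 and 176 CPM, lie below its DMSO points, between 318 and 340.3 CPM, while those of TOMM70 overlap.

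The SAM complex, which folds beta-barrels into the outer membrane, was split. SAMM50, its central barrel, was at 54.0, 56.2 and 56.1 CPM in DMSO and at 40.6, 43.1 and 43.1 CPM in TR-107. It was 1.31-fold lower (edgeR adjusted p = 9.01e-06). MTX1, a metaxin on the cytosolic side, was at 15.9, 24.1 and 20.1 CPM in DMSO and at 12.2, 15.6 and 13.4 CPM in TR-107, 1.46-fold lower (edgeR adjusted p = 0.00047). The groups stayed apart by a small margin, DMSO replicate 1 being just above TR-107 replicate 2. MTX1 overlaps THBS3 in the annotation, and THBS3 rose (log2 fold change 1.10 ± 0.17, SE). MTX3, another metaxin, went the other way, from 77.8, 81.3 and 85.8 CPM to 110.4, 117 and 116 CPM, which was 1.40-fold higher (edgeR adjusted p = 3.11e-10). MTX2, the partner of MTX1, was not called (39.7 ± 3.59 and 41.6 ± 4.96 CPM, SD, n = 3; 95% interval -0.11 to 0.24 on the log2 scale). Within libraries, the log2 ratio of MTX3 to MTX1 was 2.02 ± 0.26 in DMSO and 3.03 ± 0.14 after TR-107 (SD, n = 3), without overlap. Of the beta-barrel clients of SAM, the channels VDAC1 (-0.57) and VDAC3 (-0.67) fell on the log2 scale, and VDAC2 was not called (224 CPM in both groups).

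Small TIM chaperones work as hexamers of TIMM9 with TIMM10 and of TIMM8A with TIMM13, which ferry hydrophobic precursors across the intermembrane space. TIMM13 (chromosome 19, 2425625 to 2427586) was at 92.4, 98.4 and 93.4 CPM in DMSO and at 54.9, 56.4 and 52.8 CPM in TR-107, a fall by 0.79 ± 0.06 on the log2 scale (SE; edgeR adjusted p = 5.97e-15). Its promoter run above has an ETS match 10 bases before the start. TIMM8A, its hexamer partner, fell from 19.4 to 21.0 CPM down to 14.1 to 16.8 CPM, and TIMM8B, a close relative of TIMM8A, from 37.7 to 39.9 CPM down to 30.2 to 32.8 CPM. Their log2 fold changes were -0.37 and -0.30 (edgeR adjusted p = 0.006 and 0.0018), and the log2 ratio of TIMM8B to TIMM8A was 0.93 ± 0.02 in DMSO and 0.99 ± 0.12 after TR-107 (SD, n = 3), with overlap. TIMM8B overlaps NKAPD1 in the annotation, and NKAPD1 rose (log2 fold change 0.46 ± 0.08, SE).

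The other hexamer pair diverged. TIMM9 was at 18.2, 19.1 and 19.1 CPM in DMSO and rose to 23.1, 23.0 and 27.1 CPM in TR-107 (1.30-fold; edgeR adjusted p = 0.00206). TIMM10 was at 24.8, 25.4 and 27.5 CPM in DMSO and at 23.0, 23.6 and 19.9 CPM in TR-107 and was called lower by a narrow margin (log2 fold change -0.23 ± 0.10, SE; edgeR adjusted p = 0.0479). That call was lost without DMSO replicate 2 (adjusted p = 0.0607), DMSO replicate 3 (0.163) or TR-107 replicate 3 (0.218) and under 4 other settings, within a range of 0.0121 to 0.218. Set against each other, TIMM10 over TIMM9 had a log2 ratio of 0.45 ± 0.06 in DMSO and -0.14 ± 0.26 after TR-107 (SD, n = 3), without overlap. TIMM9 overlaps KIAA0586 in the annotation, which also rose (log2 fold change 0.32 ± 0.09, SE). TIMM10B, which docks the hexamer on TIM22, was not called (35.5 ± 2.18 and 36.8 ± 1.03 CPM, SD, n = 3; 95% interval -0.11 to 0.22 on the log2 scale).

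TIM22 inserts carriers into the inner membrane, and no member of it was called. TIMM22, the channel, had 0 counts in each of the 6 libraries, which allows a level of up to 0.127 to 0.174 CPM of the unscaled totals (3 counts). ABR, whose span overlaps TIMM22, had 2 to 146 counts per library. Because the counting settings are not known, this limit is one on assigned reads, and whether the counting left reads of TIMM22 unassigned was not tested. TIMM29, a TIM22 subunit, was at 16.9 ± 1.86 and 16.1 ± 1.49 CPM (SD, n = 3; 95% interval of the log2 fold change -0.31 to 0.18). AGK, a lipid kinase that is also a subunit of TIM22, was at 16.1 ± 2.22 and 13.8 ± 0.937 CPM (SD, n = 3; interval -0.48 to 0.04). Groups overlapped for both genes, and both intervals include -0.21, the log2 fold change of TIMM50 in the neighbouring TIM23 complex.

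TIM23 takes presequence proteins across or into the inner membrane, and 4 of its 6 genes fell. TIMM23, a core membrane subunit, was at 79.8, 84.8 and 84.0 CPM in DMSO and at 53.5, 58.1 and 50.6 CPM in TR-107, 1.54-fold lower (edgeR adjusted p = 4.47e-11). TIMM21, which couples TIM23 to TOM and to respiratory complexes, was at 48.4, 47.0 and 49.3 CPM and then at 30.2, 26.5 and 30.6 CPM, 1.66-fold lower (edgeR adjusted p = 3.38e-10). Neither gene's groups overlapped. TIMM50, the receptor of TIM23, was at 103 to 111 CPM in DMSO and 88.3 to 100.2 CPM in TR-107, 1.16-fold lower (edgeR adjusted p = 0.00138). ROMO1, a small membrane protein of the complex, was not called (26.2 ± 0.899 and 28.4 ± 2.92 CPM, SD, n = 3; 95% interval -0.08 to 0.31 on the log2 scale). TIMM23B, a near-identical copy of TIMM23, rose by 0.50 ± 0.12 on the log2 scale (SE) from 14.1 to 19.9 CPM, and reads that fit both copies make each count less certain.

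The TIMM17 paralogs, alternative subunits of TIM23, moved in opposite directions. TIMM17A (chromosome 1, 201955503 to 201970664) was at 116.5, 112.5 and 121 CPM in DMSO and at 68.0, 69.6 and 82.2 CPM in TR-107, a fall by 0.67 ± 0.06 on the log2 scale (SE; edgeR adjusted p = 2.35e-12). TIMM17B (chromosome X, 48893447 to 48898143) was at 14.3, 13.5 and 14.6 CPM in DMSO and rose to 25.4, 23.2 and 24.6 CPM in TR-107 (log2 fold change 0.79 ± 0.11, SE; edgeR adjusted p = 5.29e-08). TIMM17A thus had the higher level in both groups, and neither gene's groups overlapped. The log2 ratio of TIMM17B to TIMM17A was -2.98, -3.02 and -3.01 in DMSO and -1.41, -1.56 and -1.72 in TR-107, a difference of 1.44. By an exact permutation test (two-sided) p was 0.1, the least that this number of libraries can give, and 0.129 after Benjamini-Hochberg adjustment over the 9 pairs compared. Per kilobase of transcript, TIMM17B made up 17.5 ± 0.213% of the TIMM17 level in DMSO and 36.9 ± 2.55% after TR-107 (SD, n = 3). TIMM17B overlaps PQBP1 in the annotation, and PQBP1 rose as well (28.2 ± 1.35 to 37.8 ± 1.04 CPM, SD, n = 3; log2 fold change 0.42 ± 0.09, SE). The part of shared reads in the rise of TIMM17B was not tested.

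The import motor PAM pulls precursors into the matrix with the chaperone HSPA9. Among the import genes chosen here, 3 PAM genes were tested, and none of them was called lower. This does not cover the whole motor step: GRPEL1, an exchange factor of HSPA9 outside that choice, was called lower (log2 fold change -0.58) and is described below. TIMM44, which tethers HSPA9 to the channel, was at 105, 101 and 99.6 CPM in DMSO and at 117, 123 and 118 CPM in TR-107 (1.18-fold higher; edgeR adjusted p = 0.000124). DNAJC19, a J-protein of the motor, was at 21.7, 21.5 and 23.1 CPM and then at 28.6, 32.9 and 28.8 CPM (1.36-fold higher; edgeR adjusted p = 0.000108). Both rose without overlap. DNAJC15, a related J-protein, was at 18.2 ± 1.76 and 18.1 ± 0.458 CPM (SD, n = 3) and was not called (95% interval -0.24 to 0.22 on the log2 scale). Their log2 ratio, DNAJC15 over DNAJC19, went from -0.28 ± 0.10 to -0.71 ± 0.10 (SD, n = 3), without overlap. PAM16, which restrains the J-proteins, was too low to test, with 3, 0 and 2 counts in the DMSO libraries and 3, 6 and 6 after TR-107. CORO7-PAM16, a readthrough gene across it, had 0 counts in all 6 libraries, and the part of the counting in these low values was not tested.

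Other genes of the matrix step showed both directions. Of 12 chaperones and peptidases of this step outside the 36, 8 fell and 2 rose, where 28.6% of all tested genes fell and 29.2% rose, and the median log2 fold change was -0.58. HSPA9, the motor chaperone, rose by 0.37 and GRPEL2, one of its nucleotide exchange factors, by 0.42 on the log2 scale, while the chaperonin HSPD1 (-0.72) and PMPCA (-0.77), a subunit of the processing peptidase, fell. HSPE1, the partner of HSPD1, was 2.84-fold lower. GRPEL1, the other exchange factor of HSPA9, fell by 0.58 on the log2 scale, from 123 to 82.4 CPM (edgeR adjusted p = 7.86e-13), and is named here after its values were seen. DNLZ, named on the same ground, was called lower (-0.37 on the log2 scale, edgeR adjusted p = 0.0333). That call was lost with DESeq2 (adjusted p = 0.0622). By edgeR it was also lost without DMSO replicate 2 (0.157), TR-107 replicate 1 (0.1355) or TR-107 replicate 2 (0.0567). Over the alternatives, 7 to 9 of these 12 genes were called lower.

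The disulfide relay imports small cysteine-rich proteins by oxidising them. CHCHD4, its import receptor and oxidase, was at 29.8, 26.3 and 29.6 CPM in DMSO and at 26.2, 27.3 and 23.7 CPM in TR-107 and was not called (95% interval -0.34 to 0.04 on the log2 scale). GFER, which reoxidises CHCHD4, was at 55.6, 52.1 and 49.9 CPM and then at 36.7, 39.3 and 37.2 CPM, 1.39-fold lower (edgeR adjusted p = 6.86e-07). The groups of CHCHD4 overlapped and those of GFER did not. GFER over CHCHD4 as a log2 ratio went from 0.87 ± 0.12 to 0.54 ± 0.08 (SD, n = 3), without overlap. Among AIFM1, which docks CHCHD4, and 16 clients with twin CX9C motifs, 16 were tested, 9 fell and 1 rose (28.6% and 29.2% of all tested genes did). The falls included AIFM1 (-0.77) and the complex I subunits NDUFS5 (-0.60) and NDUFB7 (-0.49). COX19 rose (0.36, edgeR adjusted p = 0.00566), a call lost without DMSO replicate 3 (0.0749) or TR-107 replicate 3 (0.0801). Calls in the other direction moved too: 8 to 10 genes of this list were called lower over the alternatives.

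At the inner membrane, OXA1L, which inserts proteins from the matrix side, was at 140.2, 135 and 136 CPM in DMSO and at 128, 129 and 131 CPM in TR-107. Its groups did not overlap, but it was not called (log2 fold change -0.08 ± 0.05, SE; edgeR adjusted p = 0.135; 95% interval -0.18 to 0.01). IMMP2L, a catalytic subunit of the inner membrane peptidase (chromosome 7, 110662644 to 111562492), was at 4.98, 5.59 and 5.67 CPM in DMSO and at 10.6, 9.21 and 10.5 CPM in TR-107. It rose 1.87-fold (edgeR adjusted p = 2.08e-05), the largest rise among the 34. LRRN3, which overlaps it in the annotation, had 0 to 3 counts per library. IMMP1L, its partner subunit, was at 5.77 ± 0.72 and 5.84 ± 1.60 CPM (SD, n = 3) and was not called, with a wide 95% interval of -0.41 to 0.44. The log2 ratio of IMMP2L to IMMP1L was -0.08 ± 0.14 in DMSO and 0.77 ± 0.46 after TR-107 (SD, n = 3), without overlap.

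**Figure D3:**
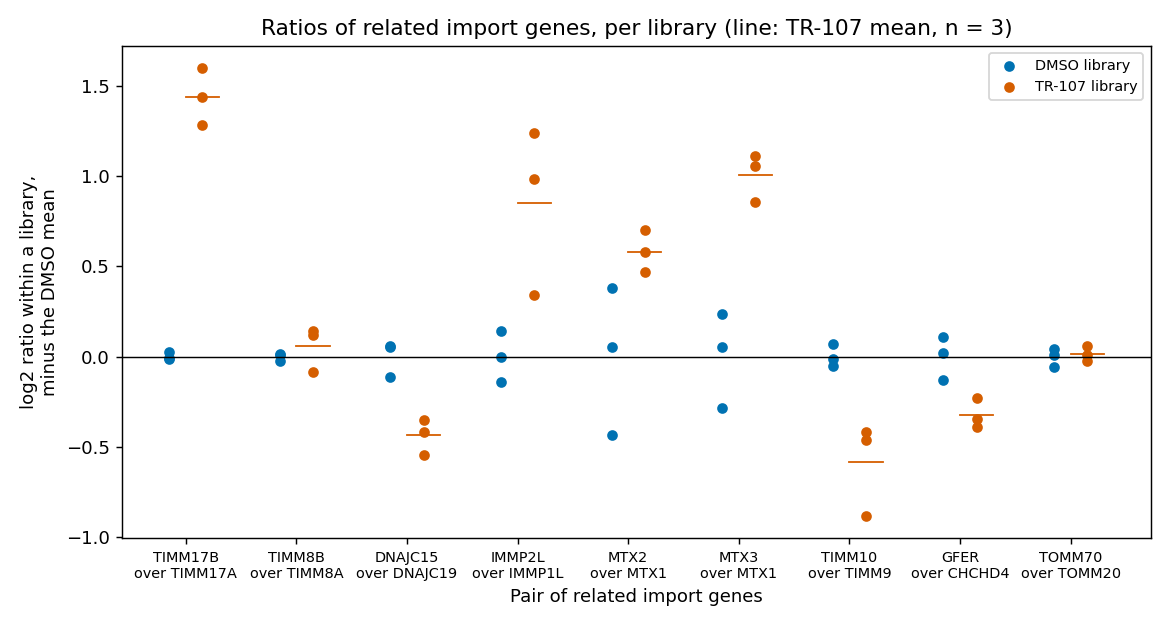
For 9 pairs of related import genes (horizontal axis), each point is the log2 ratio of the first to the second gene in 1 library, minus the DMSO mean of that pair (vertical axis); blue is DMSO, orange is TR-107, and the line is the TR-107 mean (n = 3). The ratio of TIMM17B to TIMM17A was shifted by 1.44, that of TOMM70 to TOMM20 by 0.02.

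In 7 of the 9 pairs the groups did not overlap and the exact two-sided permutation p was 0.1 (0.129 adjusted over the pairs), so no pair could pass 0.05. Among single tested genes, the groups of 62.4% did not overlap. How often pairs of any genes would separate was not measured, so the count of 7 cannot be read as particular to related import genes. The shifts of these 7 were 1.44 for TIMM17B over TIMM17A, 1.01 for MTX3 over MTX1, 0.85 for IMMP2L over IMMP1L, 0.58 for MTX2 over MTX1, -0.32 for GFER over CHCHD4, -0.44 for DNAJC15 over DNAJC19 and -0.59 for TIMM10 over TIMM9. That of MTX2 over MTX1 was 0.36 without DMSO replicate 2 and 0.77 without DMSO replicate 1.

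Levels were compared between genes per kilobase of transcript, using the longest principal transcript of GENCODE. In DMSO the highest were TOMM6 (234 CPM per kb), TOMM40 (191), TOMM5 (155), TOMM20 (102) and TOMM22 (93.9), so the 5 highest were all TOM genes. Among tested genes the lowest were DNAJC15 (2.32), IMMP2L (3.56) and AGK (4.18). The place of DNAJC15 rests on a transcript length of 7853 bases. In CPM it was at 18.2 in DMSO, above IMMP2L (5.41) and AGK (16.1). In TR-107, TOMM40 (100.7), TOMM5 (97.3) and TOMM20 (95.3) drew together, where in DMSO TOMM40 had stood at 191 and TOMM20 at 102. MTX3 moved from rank 10 to rank 5 and TIMM13 from rank 12 to rank 19.

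**Figure D4:**
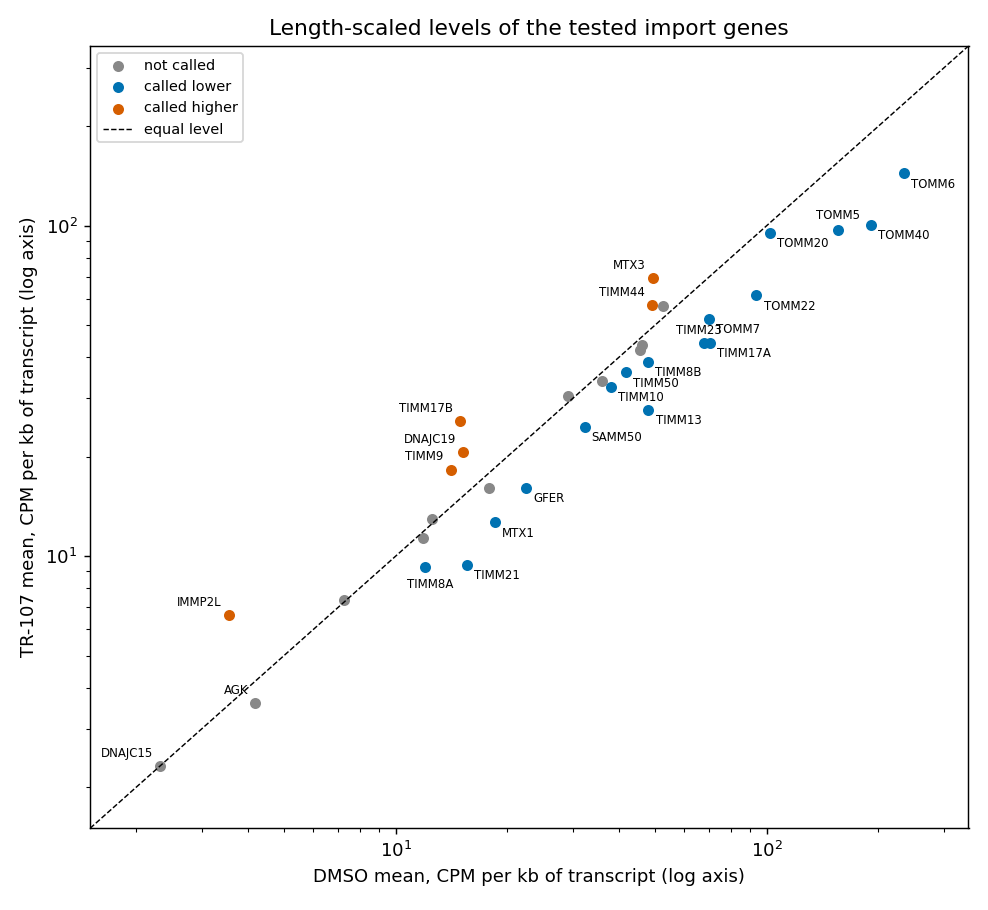
Each point is a tested import gene, with its mean level in DMSO (horizontal axis) and in TR-107 (vertical axis) in CPM per kilobase of transcript, both on log axes; the dashed line marks equal levels. TOMM6, TOMM40 and TOMM5 lie at the top right below the line, and IMMP2L, at 3.56 and 6.65, at the lower left above it.

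Further genes of the pathway were compared in the same fit, from lists chosen by name with earlier results of these data known. Of 9 outer membrane insertases and factors that clear misplaced or stalled proteins, 5 fell and 3 rose; for these lists too the shares over all tested genes are 28.6% lower and 29.2% higher. The insertases MTCH1 (-0.42) and MTCH2 (-0.32) and the chaperone UBQLN1 (-0.25) fell on the log2 scale. The ubiquitin ligases MARCHF5 (0.48) and MARCHF6 (0.28) and ATAD1 (0.25), an ATPase that extracts misplaced membrane proteins, rose. MUL1, another ubiquitin ligase of this list, was called lower (-0.18, edgeR adjusted p = 0.0474), though its groups overlapped. That call was lost with upper-quartile scaling, DESeq2 and limma-voom. It was also lost without DMSO replicate 1, DMSO replicate 2, TR-107 replicate 2 or TR-107 replicate 3. Of 8 genes of MICOS and its partners, which shape cristae and bind SAM, 2 fell, DNAJC11 (-0.51) and MICOS10 (-0.45), 1 rose, APOOL (0.43), and 5 were not called. Of 5 paralogs of import genes, TOMM40L (-0.81) and COX18 (-0.25) fell and TIMM23B (0.50) and TIMMDC1 (0.23) rose, and the call of COX18 was lost under 9 alternatives, among them leaving out any 1 of the 6 libraries (edgeR adjusted p = 0.0562 to 0.113). Over these 54 genes, 53 were tested, with 28 lower and 9 higher, beside the same 28.6% and 29.2% of all tested genes.

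Of the 36 import genes, 16 overlap another annotated gene, among them 11 of the 23 that were called. A further limit is that 15 have named pseudogenes in RefSeq (44 in all), none of which has a row in the count files, so reads that fit a copy may be lost or credited to the gene.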

How the data were processed

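RNA of 6 HCT116 libraries (3 DMSO, 3 TR-107) was enriched for poly(A) and read in pairs, per the labels' protocols. The deposited values are raw read counts per NCBI Gene ID, which the authors made with featureCounts after FastQC, Trimmomatic and HISAT2 on hg38, per the submitters' processing notes. For these tools, versions, annotation, strand and multi-mapping settings were not given in the sources used here. Libraries held 17264039 to 23708135 counts. Of 28395 gene IDs, 27745 matched a RefSeq symbol (GRCh38.p14) and 650 did not.

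Counts were tested with edgeR 4.0.16 in R 4.3.3 (TMM, filterByExpr, robust quasi-likelihood fit, group only, Benjamini-Hochberg threshold 0.05 over all 13767 genes tested). The standard error is the log2 fold change over the root of the F statistic. CPM uses TMM-scaled library sizes. Ratios within libraries used a pseudocount of 0.5 CPM and an exact two-sided permutation test (SciPy 1.17.1), with p adjusted over 9 pairs. Alternatives were other scalings and filters, mitochondrially encoded genes left out, limma-voom (limma 3.58.1), DESeq2 1.42.0, a replicate block and leaving out each library. The fits were checked on simulated counts. No 2 libraries of a group agreed within sampling noise (chi-square 3.96 to 6.16 per degree of freedom). Lengths came from GENCODE and promoters from RefSeq; protein sequences were not used here. All 36 members are named. Outside them, up to 3 called genes per direction with the smallest p were named from each list, plus VDAC2 and genes that overlap a member. GRPEL1, DNLZ and MUL1 were named in addition, after their values were seen. The members and lists were chosen with earlier results of these data known. Intervals and floors cover counting error or the fit's spread only. One cell type marker of the lists is not reported here.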

Additional observations from a re-analysis of the deposited data

How the results depend on the processing

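Under 15 alternatives, 28 of the 34 tested import genes kept their call. The other 6 (TOMM20, TOMM70, TOMM34, TIMM10, CHCHD4 and OXA1L) changed call under at least 1. None of these 510 values reversed a called direction. Some genes that were not called did change sign, such as MTX2, at -0.03 to 0.14 on the log2 scale over the libraries left out. The count of import genes called higher was 6 throughout, and that called lower was 16 to 18 when 1 library was left out and 16 to 21 otherwise. With library size alone, which moved the median of all tested genes from 0.01 to -0.05, TOMM34 (-0.18), CHCHD4 (-0.22), OXA1L (-0.15) and TOMM70 (-0.15) were also called lower. The counts called lower then became 1 for TOMM34, the cytosolic partner of TOM, 2 for the disulfide relay and 1 for insertion and signal removal at the inner membrane; for TOMM34 leaving out 1 library gave 0 to 1. TIMM10 also lost its call with upper-quartile factors (adjusted p = 0.0549), no filter on low counts (0.0571), the replicate block (0.0549) and DESeq2 (0.087), and the causes were not tested. Same-numbered libraries did not deviate together (correlations -0.03, -0.02 and 0.05), so the numbers were not taken as pairs; with the replicate block, 16 import genes were called lower and 6 higher, and 7918 of all genes. All genes called numbered 7323 to 8021 over the alternatives. The log2 ratio of TOMM70 to TOMM20 was shifted by 0.02 with all libraries, by -0.0126 without DMSO replicate 2 and by -0.00775 without TR-107 replicate 1, within -0.0126 to 0.0369 over the libraries left out; the other 8 pairs kept their direction. Of 180 counts over the other pathway lists, 169 stayed within 1.5 times; the rest were the single rise of COX19 and the fall of COX18. Depth limits the lowest genes: IMMP1L, at 77 to 151 counts per library, had the widest interval of the 34.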
